A study of Mus musculus with 3 samples.

Results

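The cytosolic ribosomal protein genes code for the proteins that, with ribosomal RNA, build the ribosome of the cytoplasm. They were followed here in mouse mammary tumors with forced GATA-3. Members were found by gene symbol: Rpl, Rps or Rplp and a number, with at most 1 further letter a, l, x or y. Mitochondrial ribosomal proteins stay outside. The family was proposed because its log ratios on these same arrays were already known to be low, so it was selected on the ratios given below. Those ratios, and the calls made from them, are therefore a description and no test of the family. Of 38976 measured rows, 22973 carried a gene symbol, and 113 rows of 69 genes matched (44 genes of the large subunit with 81 rows, 25 of the small subunit with 32 rows). The whole table held 15056 named genes. Of the members, 66 code for standard subunits of the ribosome, and the other 3, Rpl39l, Rpl3l and Rps27l, are paralogs of such subunits.

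There were 3 two-colour arrays. On each, tumor RNA from carcinoma cells carrying a GATA-3 retrovirus was labelled with Cy5, and tumor RNA from cells carrying the empty vector was labelled with Cy3. GATA-3 is a zinc-finger transcription factor of luminal mammary cells. The vector, PMIG, also expresses GFP from an internal ribosome entry site. Both kinds of tumor came from primary cultures of MMTV-PyMT carcinomas, in which a mammary tumor virus promoter drives a viral oncogene in mammary epithelium. Both grew for 6 weeks in cleared fat pads of wild-type hosts. The sources used here do not give the age of the hosts, nor whether the arrays held separate animals. Any p-value therefore measures the spread between these 3 arrays, which may be technical. The array numbers are only names, and the titles of arrays 2 and 3 begin alike.

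Each value is the deposited log ratio, read as log2 of the GATA-3 tumor over the empty-vector tumor, after the median of its array was set to 0. The labels give the dyes and name the GATA-3 tumor first, so this direction is likely, but no source states it. With the sign turned, every "negative" below would read "positive". No dye was swapped, so a dye effect of a row cannot be told apart from a difference between tumors. Values are ratios of whole-tumor RNA. Fewer cells of a kind and less RNA per cell cannot be told apart, and the levels of marker genes in a tumor cannot be checked.

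The ribosome has a small subunit, which reads the message, and a large subunit, which joins amino acids and holds the tunnel through which the new protein leaves. Ribosomal protein messages are among the most abundant of a growing cell. In mammals most of them begin with a C followed by a stretch of C and T, the terminal oligopyrimidine (TOP) tract, through which mTOR and LARP1 control their translation. Many members have processed pseudogenes and some have expressed paralogs, so a probe for 1 copy may detect another.

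The start regions of 10 members are shown, with and without a run of C and T, from the low and the high end of the order of ratios; Rps27 stands beside its paralog Rps27l. RefSeq start windows (GRCm38.p6) were found for 55 of the 69 genes. Each line is 30 bases of the coding strand, 5′ to 3′. Capitals mark an unbroken run of at least 8 letters, all C or T, that begins within 25 bases of the annotated start; where there is none, the line runs from 20 bases before the start to 10 bases from it.
Rps23: tgccttgtgggTCCTTCCTgcacctcctct
Rpl39: cgagtcatccaTCCCCCCCTaagctccgcc
Rpl35: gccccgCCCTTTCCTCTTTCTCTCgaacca
Rpl10: ctatggttgttacagtggaagataggccgc
Rps16: taaagcccgcttctgtcgtgacgtagcact
Rps27: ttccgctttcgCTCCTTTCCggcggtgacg
Rps15a: gcccggcccaCTCTCTTTCTgccatcttcc
Rps27l: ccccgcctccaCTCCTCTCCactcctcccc
Rplp0: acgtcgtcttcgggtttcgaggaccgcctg
Rpl39l: cctagctcccaggcctttccggatttccgg
They lie at chr13:90923135-90923164 (+), chrX:37085225-37085254 (-), chr2:39005115-39005144 (-), chrX:74270796-74270825 (+), chr7:28350669-28350698 (+), chr3:90213632-90213661 (-), chr7:118116143-118116172 (-), chr9:66946053-66946082 (+), chr5:115559447-115559476 (+) and chr16:10170208-10170237 (+), in the order printed.

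Such a run was found in 34 of the 55 members (61.8%), against 2808 of 12171 measured named genes with a window (23.1%) and 17 of 65 mitochondrial ribosomal protein genes (26.2%). It was found at 20.5% of all 32851 start windows. A C at the exact annotated start followed by at least 4 letters C or T was found in 13 of 55 members (23.6%), against 344 of 12171 (2.83%) and 0 of 65. It was found at 2.51% of all start windows. Only the coding strand was searched, the exact form can lie within the longer run, and annotated starts can be some bases off. Of the 10 genes printed, Rpl35, Rps27 and Rps15a have the exact form. In Rps15a it is not the run in capitals, which begins 15 bases before the annotated start, but the last 5 letters of the line. The runs of Rps23, Rpl39 and Rps27l begin 24 bases after, 21 before and 22 before the annotated start. None of these 4 runs in capitals need be a TOP tract.

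The run was found at both ends of the order of ratios. The 34 genes with it had a median log2 ratio of -1.04, with 24 negative and 5 positive past the threshold given below. The 21 genes without it had a median of -0.43, with 11 negative and 6 positive. Of all rows, 24.1% were negative and 31.7% positive past that threshold. Rps15a, with the run, had the second highest ratio of the family, and Rpl10, without it, the second lowest. Split by the exact form instead, the 13 members with it had a median of -1.01 and the 42 without it one of -0.74. Among the other named genes the median was -0.07 over 331 with the exact form and 0.02 over 11785 without it.

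Most ribosomal protein genes had a negative ratio. The median over the 69 genes was -0.84, a GATA-3 tumor level 0.559 times that of the empty-vector tumor, and the quartiles were -1.26 and -0.02. On arrays 1, 2 and 3 the median was -0.84, -0.95 and -0.56, each below the median of all rows, which lay between 0.02 and 0.03. Of the 69 genes, 49 were negative on all 3 arrays, 13 were positive on all 3 and 7 changed sign. The family thus held many negative genes and a smaller number of positive ones.

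Rows were also called, with limma's moderated test of the mean against 0 and Benjamini-Hochberg adjustment over all 31059 rows (1 a gene, rows without a symbol on their own) at a threshold of 0.05. Past it, 45 of the 69 genes were negative, where 24.1% of all rows were. Positive past it were 12 of the 69, where 31.7% of all rows were, and 12 genes did not pass. With a mean of at least 1 in size as well, 30 of 69 genes were negative, where 2.31% of all rows were. Taken row by row, 66 of 113 rows were negative past the threshold (25.9% of all 38975 rows) and 20 positive (31.4%). With the size limit, 36 of 113 rows were negative (2.7% of all rows). The family was chosen on these values, so nothing is read from the shares.

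**Figure D1:**
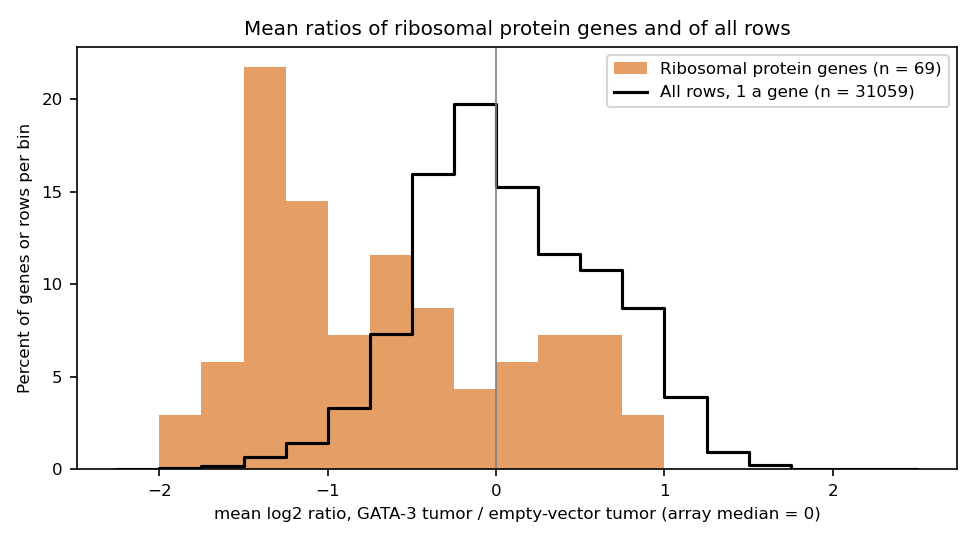
Percent of the 69 ribosomal protein genes (bars) and of all 31059 rows (line, the family included) in bins of the mean log2 ratio of GATA-3 over empty-vector tumor. The most filled bin of the family, from -1.5 to -1.25, holds 21.7% of its genes and 0.676% of all rows; no member lies at or above 1.

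The negative end of the table held many members, which is no test of a family chosen on these values. The family made up 69 of the 15056 named genes. Of the 10 named genes with the lowest mean ratio 4 were members, of the lowest 100 19 were, and of the lowest 500 33 were. None of the 500 named genes with the highest ratios was a member. A mean ratio of -1 or lower was seen in 31 of 69 members (44.9%) and in 2.32% of all rows.

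Of the small subunit, the lowest ratio of the family was that of Rps23, whose protein (uS12) lies at the decoding centre where the message is read. Its row gave -1.88, -2.30 and -1.52 on arrays 1, 2 and 3, a mean of -1.90 ± 0.39 (SD, n = 3), or 3.73-fold lower in the GATA-3 tumors. Rps16 (uS9), a protein of the head of the subunit, gave -1.73, -2.11 and -1.34, a mean of -1.73 ± 0.39. Rps15 (uS19), also of the head, gave -0.93, -1.99 and -1.57, which is 2.83-fold lower, with an SD of 0.53 on the log2 scale. All 3 genes were negative on every array, with the largest size on array 2. Rps6, the ribosomal protein whose phosphorylation is a standard readout of mTOR signalling, gave -1.34, -1.66 and -1.05, a mean of -1.35 ± 0.31.

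The head of the small subunit, which swivels as messages and transfer RNAs move through, was represented by 11 genes. Of these 9 were negative past the threshold and 0 positive, where 24.1% and 31.7% of all rows were, with a median of -1.22. Rps20 and Rps19, a gene mutated in Diamond-Blackfan anaemia in humans, did not pass. Rps20 had a mean of 0.07 and Rps19 one of 0.22, and each had 1 negative and 1 positive row. The 13 genes of the body and platform counted 6 negative and 3 positive, beside the same shares of all rows, with a median of -0.73. The ranges overlapped, from -1.73 to 0.22 for the head and from -1.90 to 0.92 for the body. Rps23, the lowest of all, is a body protein. The difference between head and body was not tested.

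Of the large subunit, Rpl10 (uL16), which joins late in assembly and lies near the site of peptide bond formation, was lowest. It gave -1.90, -2.14 and -1.22 on arrays 1, 2 and 3, a mean of -1.75 ± 0.48 or 3.37-fold lower. Rpl35 (uL29), a protein at the exit of the tunnel, gave -1.68, -1.83 and -1.18, a mean of -1.56 ± 0.34. Rpl29 gave -1.80, -1.63 and -1.13, a mean of -1.52 ± 0.35. In each of the 3 the ratio nearest to 0 was that of array 3. Rpl35a (eL33), another Diamond-Blackfan anaemia gene in humans, gave -1.19, -2.19 and -1.12, which is 2.82-fold lower, with an SD of 0.60 on the log2 scale, and array 2 stood apart from the others.

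The exit tunnel is lined in part by Rpl4, Rpl17 and Rpl39, and the 3 genes did not move alike. Rpl39 (eL39), a very short protein, gave -1.85, -1.97 and -1.41, a mean of -1.74 ± 0.30. Rpl17 had a mean of -0.74 ± 0.18 over 2 rows that stood at -1.39 and -0.08. Rpl4 did not pass, with -0.73, -0.05 and 0.00 on the 3 arrays, so its mean of -0.26 ± 0.41 came mostly from array 1. Around the mouth of the tunnel, 5 of 7 genes were negative past the threshold and Rpl22 was positive. Rpl39 and Rpl17 belong to this set as well and are among the 5. Of all rows, 24.1% were negative and 31.7% positive. The median of the 7 genes was -1.12.

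Rpl5 and Rpl11 form, with the smallest ribosomal RNA, the particle that can bind MDM2 and so stabilise p53 when ribosome assembly is disturbed. Rpl5 gave -1.22, -1.84 and -1.22, a mean of -1.43 ± 0.36. Rpl11 gave -1.08, -1.06 and -0.43, a mean of -0.86 ± 0.37. Both were negative on all arrays, each on 1 row. Rpl10a (uL1), the protein of the stalk that guides spent transfer RNA away, had a mean of -1.40 ± 0.43.

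In the acidic stalk of the large subunit, which recruits elongation factors, Rplp0 and Rplp2 had positive ratios and Rplp1 negative ones. Rplp0, its base, had ratios of 0.54, 1.03 and 0.69, a mean of 0.75 ± 0.25 (1.68-fold higher), with both of its rows positive (0.50 and 0.998). Rplp2 had 0.39, 0.64 and 0.49, a mean of 0.51 ± 0.12, again with both rows positive. Rplp1, the partner of Rplp2 in the stalk dimer, did not pass: it had -0.01, -1.22 and -0.73, a mean of -0.65 ± 0.61. Without array 1, Rplp1 passed with a mean of -0.98, while Rplp2 lost the call without array 3.

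**Figure D2:**
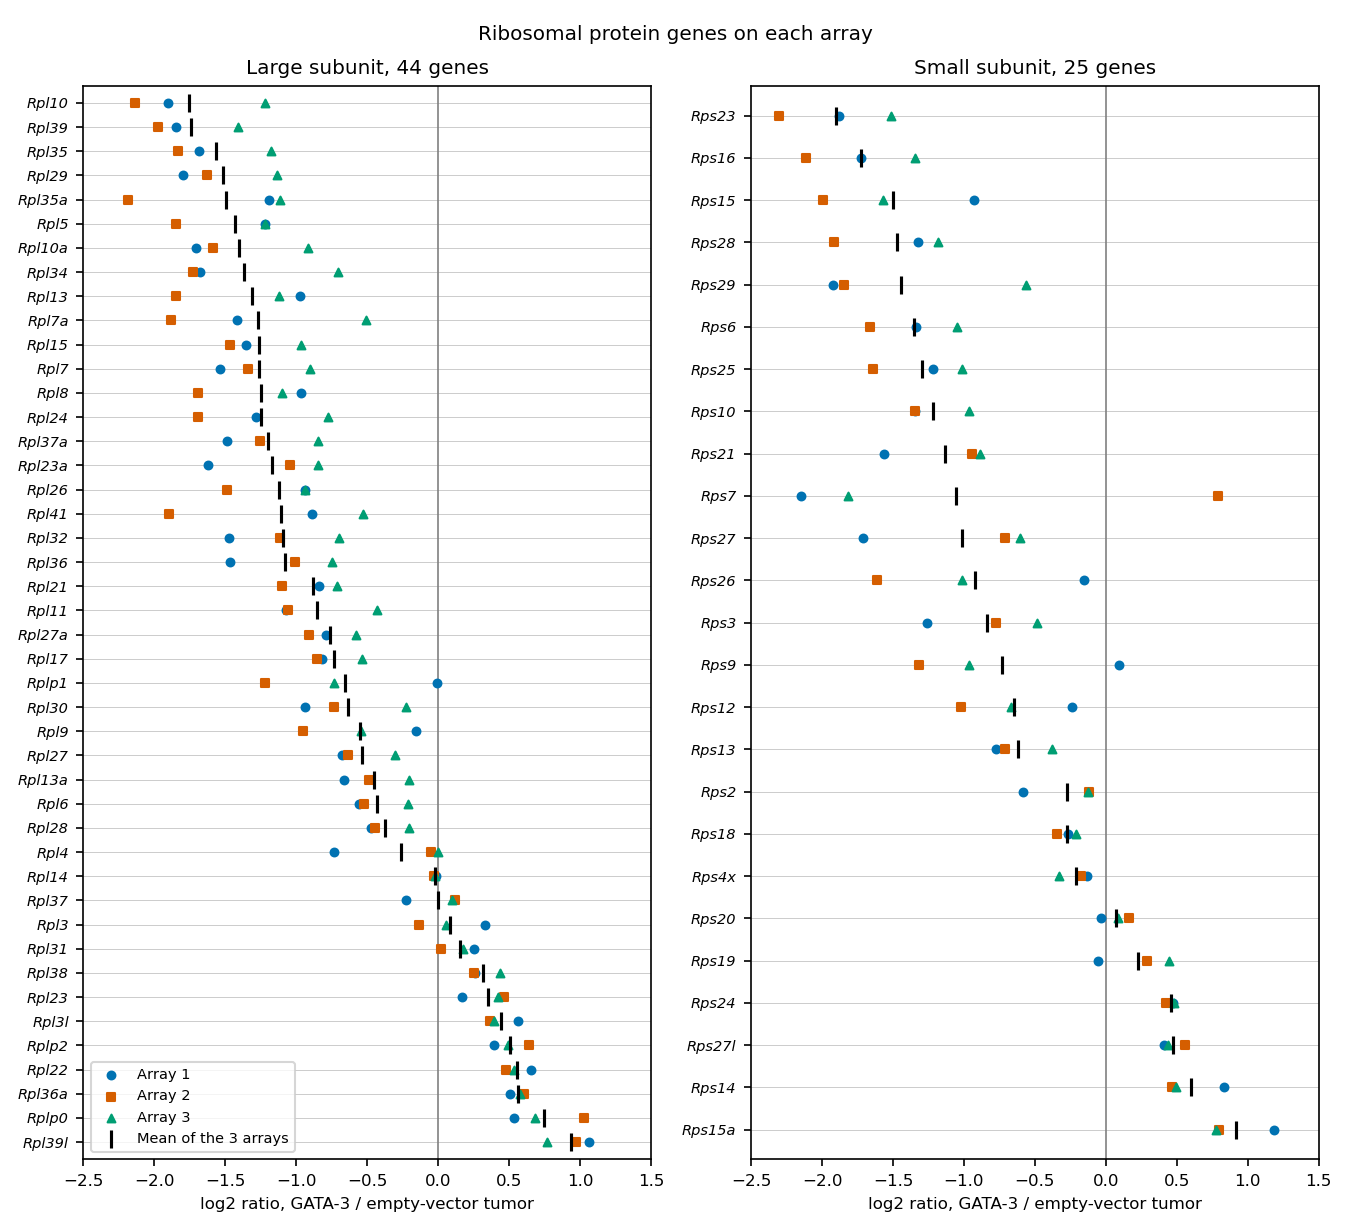
The log2 ratio of GATA-3 over empty-vector tumor of each ribosomal protein gene on arrays 1 (circle), 2 (square) and 3 (triangle), with the mean (bar), for the large subunit (left) and the small subunit (right), lowest genes on top. The genes run from -1.90 (Rps23) to 0.94 (Rpl39l); array 3 usually lies nearest to 0 among negative genes, and Rps7 has array 2 on the other side of 0.

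Apart from the stalk, the highest ratios belonged to a few single-row genes. Rps15a (uS8) had 1.18, 0.80 and 0.77, a mean of 0.92 ± 0.23 (1.89-fold higher). Rps14 (uS11), known in humans from the 5q deletion syndrome, had 0.83, 0.47 and 0.50, a mean of 0.60 ± 0.20. Rpl36a had 0.51, 0.60 and 0.58, a mean of 0.56 ± 0.05. Rpl22, whose loss in mice blocks development of a class of T cells, had 0.65, 0.48 and 0.54, a mean of 0.56 ± 0.09. These 4 genes were positive on all arrays and kept the call whichever array was left out. The 12 genes called positive ranged from 0.32 to 0.94, and the 45 called negative from -1.90 to -0.27.

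Paralogs and their partners often had ratios of opposite sign. Rpl39l, known as a testis-enriched copy of Rpl39, had 1.07, 0.97 and 0.77, a mean of 0.94 ± 0.15, the highest of the family, against -1.74 for Rpl39. Rps27l, a p53 target, had 0.41, 0.56 and 0.44, a mean of 0.47 ± 0.08, against -1.01 ± 0.61 for Rps27. Rpl3l, which is expressed in striated muscle, had 0.56, 0.36 and 0.40, a mean of 0.44 ± 0.11, and its partner Rpl3 was near 0 (0.09 ± 0.23, not past the threshold). All 3 paralogs were positive, and without array 3 Rpl3l and Rps27l lost the call. In the next 3 pairs the copy lies outside the symbol rule. Rpl36al had a mean of -1.01 ± 0.13, against 0.56 for Rpl36a. Rpl22l1 had -1.16 ± 0.22, against 0.56 for Rpl22. Rpl7l1 stood at 0.00 ± 0.08, against -1.26 ± 0.32 for Rpl7. The copy was thus the positive member of some pairs and the negative one of others. Each of these genes had 1 row except Rpl7l1, with 2. Rows of the same gene can also differ in sign: all rows had 1 sign in only 7 of the 18 members with 2 or more rows. A difference between single rows therefore need not be one between copies. Which copy a row detects was not tested.

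Large and small subunits did not differ beyond the spread between arrays. Of 44 large subunit genes 30 were negative and 8 positive past the threshold, and of 25 small subunit genes 15 were negative and 4 positive. Of all rows, 24.1% were negative and 31.7% positive. The median was -0.81 for the large and -0.84 for the small subunit, a difference of 0.03. Array by array, the large-minus-small difference was -0.09, -0.25 and 0.07, with an SD of 0.16, so its sign was not the same on all arrays. The 37 proteins of archaea and eukaryotes or of eukaryotes alone had a median of -1.01, with 25 negative and 5 positive, and the 29 proteins shared with bacteria one of -0.76, with 20 negative and 4 positive. On arrays 1, 2 and 3 the medians were -0.94, -1.02 and -0.70 for the 37 and -0.82, -0.95 and -0.54 for the 29, so the 37 were lower on each array. This difference was not tested.

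The order of the genes was broadly alike on the arrays, less so in the small subunit, and the size was not. The 69 genes are no independent replicates, since they share arrays and perhaps RNA. Over them Pearson's correlation of arrays 1 and 2 was 0.76, that of arrays 1 and 3 was 0.84, and that of arrays 2 and 3 was 0.85. Over all 31059 rows the same values were 0.77, 0.78 and 0.95. Spearman's rho, which measures order, was 0.74, 0.80 and 0.85 over the 69 genes for the same pairs of arrays. It was 0.84, 0.87 and 0.91 over the 44 large subunit genes and 0.59, 0.73 and 0.75 over the 25 small subunit genes. The lowest of the 3 values fell on array 2 in 37 genes, on array 1 in 29 and on array 3 in 3. Array 2 had the widest spread of all rows (SD 0.722, against 0.562 and 0.550), and with arrays scaled to 1 spread the medians were -0.90, -0.83 and -0.61 on arrays 1, 2 and 3. Array 3 therefore stayed nearest to 0, and array 2 was no longer the lowest.

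Some members differed strongly between arrays, 11 of them by more than 1. Rps7 had -2.15 and -1.82 on arrays 1 and 3 but 0.79 on array 2. Its mean of -1.06 ± 1.61 did not pass, and without array 2 it did, at -1.99. Rps26, Rps9 and Rplp1 were near 0 on array 1 (-0.15, 0.09 and -0.01) and far below on arrays 2 and 3. Rps26 had -1.61 and -1.02 there, and Rps9 had -1.32 and -0.97. Of this kind, Rps26 passed, at -0.93 ± 0.73, and lost the call without array 2 and without array 3. Within the arrays of 1 title prefix, 2 and 3, 47 of 69 genes were called negative (27.6% of all rows there), with a median of -0.75.

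**Figure D3:**
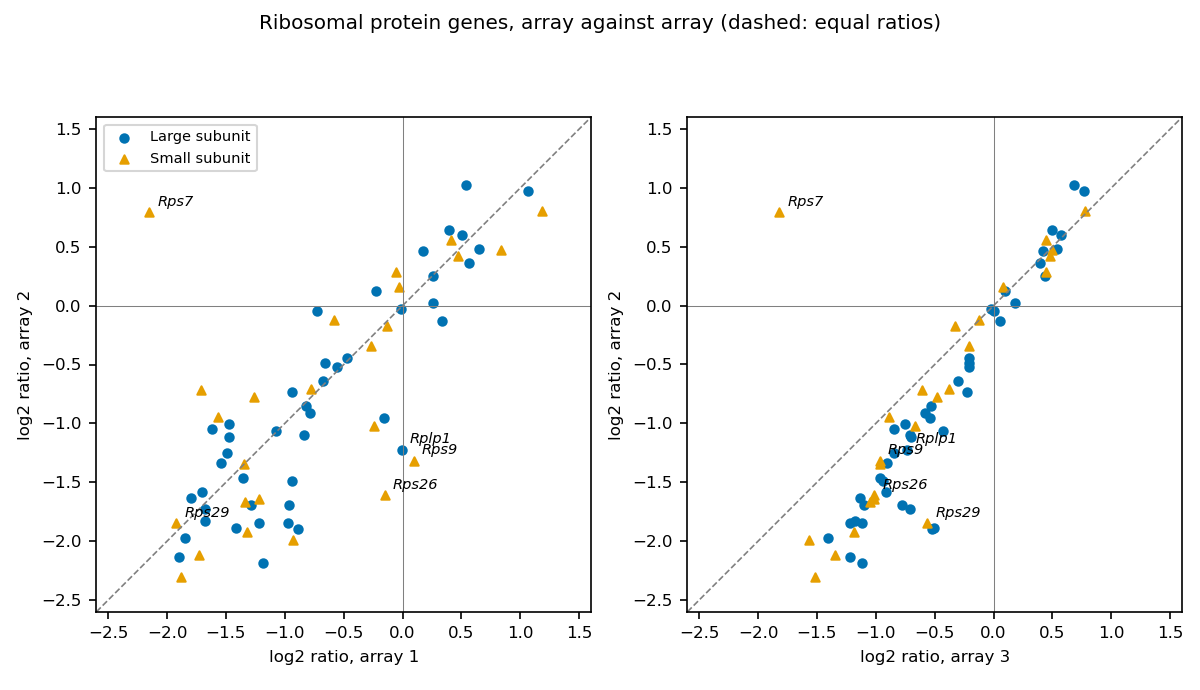
Log2 ratios of the 69 genes on array 2 against array 1 (left) and against array 3 (right), large subunit as circles and small subunit as triangles, with the line of equal ratios dashed. Most negative genes lie below the line against array 3 (array 2 is the lower in 57 of 69 genes), and Rps7 lies far above it in both panels.

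Members with several rows had a median ratio nearer to 0 than members with 1 row. The 51 members with 1 row had a median of -1.12, with 38 negative and 7 positive past the threshold, and all 30 negative genes of at least 1 in size were among them. The 18 members with 2 or more rows had a median of -0.27, with 7 negative and 5 positive. Of all named genes with 1 row, 26.1% were negative and 36.3% positive past the threshold. Of all those with more rows, 25.1% were negative and 24.0% positive. Over all named genes the medians were close to 0 in both classes, 0.03 for 9918 genes with 1 row and -0.00 for 5138 with more, and the SD of gene means was 0.406 for genes with more rows and 0.602 for genes with 1 row. The same held when rows were not averaged: the 62 rows of multi-row members had a median of -0.37, and their 40 rows other than those of Rpl13a one of -0.20, with 15 negative and 13 positive calls. Of all 38975 rows, 25.9% were negative and 31.4% positive.

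Rows of 1 gene disagreed more within the family than over the table. The median SD between rows of a gene was 0.781 over the 18 members and 0.384 over all 5138 multi-row genes. In 7 of 18 members (38.9%) all rows had 1 sign, against 47.7% of all multi-row genes. Rpl28, Rpl37, Rpl38, Rps13, Rps19 and Rps20 each had rows called in both directions (6 of 18 members, against 1127 of all 5138 multi-row genes). Every row of a gene carried the same transcript accession in the platform annotation, so the annotation does not tell such rows apart.

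Rpl28 had the widest gap, with 1 row at -1.52 and the other at 0.77. Rpl38 had a row at -1.09 beside rows at 0.95 and 1.08, and its mean of 0.32 ± 0.10 hides both kinds. The lower row of Rpl38 was negative and the other 2 positive on all 3 arrays. Rpl37 had rows at -0.96, 0.16 and 0.79. Rpl23 had rows at -0.16, 0.26 and 0.96. Rps13 had rows at -1.52 and 0.27. For these 5 genes the sign of the gene depends on which row is taken.

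The remaining genes with 3 or more rows had mostly negative rows. Rpl27a had rows at -0.88, -0.77 and -0.63, all past the threshold. Rpl21 had rows at -1.79, -0.68 and -0.19, all negative but unequal. Rps9 had rows at -1.27, -0.70 and -0.22, of which 1 passed. Rpl13a, often used as a reference gene in expression assays, had 22 rows, the most of the family. Their means ran from -0.96 to 0.19 with a median of -0.43, 20 of 22 were negative, 13 were negative past the threshold and 0 positive. On arrays 1, 2 and 3 the median of these rows was -0.60, -0.45 and -0.26, with 21, 20 and 17 of them negative. The gene mean of -0.45 ± 0.23 lost the call without array 2. Taking the lowest row of each gene gave a median of -1.08 over the 69 members, and taking the highest gave -0.64, with 47 of 69 negative.

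**Figure D4:**
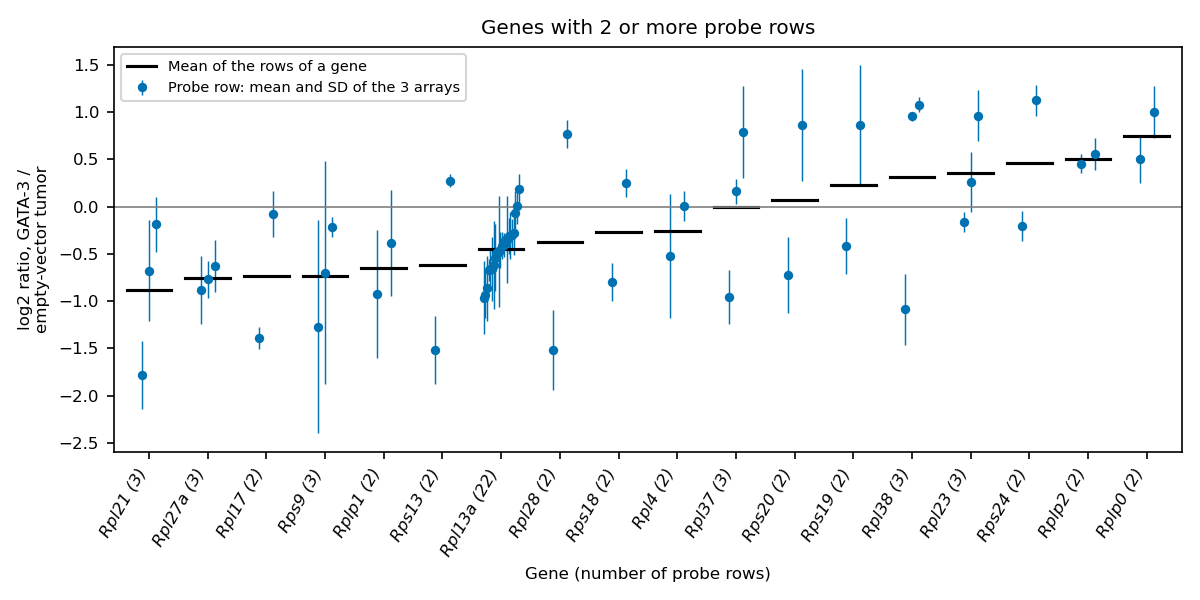
The mean log2 ratio (± SD over the 3 arrays) of every row of the 18 members with 2 or more rows, with the mean of each gene as a bar and the number of rows in brackets. Rpl28, Rpl38 and Rps13 have rows far apart on both sides of 0, while the 22 rows of Rpl13a span from -0.96 to 0.19.

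Ribosome genes outside the symbol rule were also mostly negative. Of 6 measured of 8 listed, 4 were negative past the threshold and 0 positive, where 24.1% and 31.7% of all rows were. The median of the 6 was -1.03. Rps3a1 had a mean of -1.31 ± 0.42, and Fau, whose product yields the small subunit protein Rps30, one of -1.04 ± 0.29. Rpsa, the laminin receptor-like protein of the small subunit, stood at 0.13 ± 0.07 and did not pass. The rule thus left out genes of the same kind.

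TOP messages that encode no ribosomal protein counted 5 negative and 1 positive of 12 measured, where 24.1% and 31.7% of all rows were, with a median of -0.27. Pabpc1, the poly(A)-binding protein gene, was at -1.02 ± 0.21, and Eef2, the translocation factor of elongation, at -0.76 ± 0.19 over 22 rows. Npm1, a nucleolar chaperone that stands in this list and the next, was lowest at -1.35 ± 0.27. Eef1a1 (-0.15 ± 0.20) and Tpt1 (0.31 ± 0.30), both textbook TOP messages, did not pass, and Nap1l1 was positive at 0.63 ± 0.21.

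Of 27 measured genes that assemble ribosomes, 10 were negative (37.0%) and 11 positive (40.7%) past the threshold, where 24.1% and 31.7% of all rows were, with a median of 0.08. Rrs1 (1.03 ± 0.13) and Rpf2 (1.01 ± 0.18), which in yeast bring Rpl5 and Rpl11 into the large subunit, were highest, while both Rpl5 and Rpl11 had negative ratios. Sbds, which helps release a factor from new large subunits, was at -0.91 ± 0.22. Of 7 measured upstream genes, 2 were negative and 0 positive past the threshold, where 24.1% and 31.7% of all rows were. Mtor was at -0.28 ± 0.17 and Myc at 0.03 ± 0.10, neither past the threshold, and Rps6kb2, which codes for a kinase of the Rps6 protein, was negative at -0.39 ± 0.26. Rptor, a binding partner of mTOR, was negative at -0.31, and Mycn stood at 0.53 ± 0.59, not past the threshold, with its highest ratio on array 2.

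Mitochondrial ribosomal protein genes, which stay outside the family, had a median of -0.19 over 74 genes. Past the threshold 26 of them were negative (35.1%) and 9 positive (12.2%), where 24.1% and 31.7% of all rows were. Their lowest was Mrps26 (-1.31 ± 0.26) and their highest Mrpl57 (1.03 ± 0.30). A mean of -1 or lower together with a call was seen in 1 of 74 of them, where 2.31% of all rows were. The difference between the families was not tested.

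**Figure D5:**
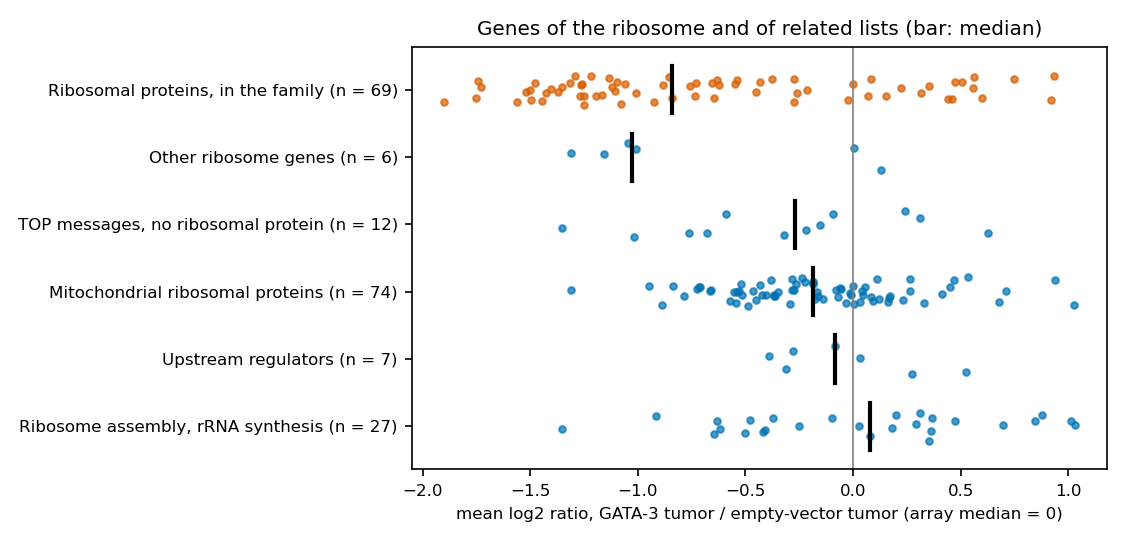
The mean log2 ratio of each gene (points, spread vertically for display) in the ribosomal protein family and in 5 related lists, with the median of each as a bar. Medians run from -1.03 for the other ribosome genes, over -0.84 for the family, to 0.08 for assembly genes.

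Cell type markers went both ways beside these ratios, and their part in the result was not tested. Past the threshold, 24.1% of all rows were negative and 31.7% positive, and each marker list is too short to be set against these shares. Epithelial genes counted 2 negative and 1 positive of 4, fibroblast genes 3 and 0 of 5, adipocyte genes 0 and 1 of 4, muscle genes 2 and 1 of 3, macrophage genes 0 and 1 of 2, T and B cell genes 0 and 2 of 3, endothelial genes 0 and 1 of 2 and red cell genes 0 and 2 of 2. Receptor genes of the nose (olfactory and vomeronasal, 976 genes) had a median of 0.62, with 52 negative and 665 positive; this list was chosen after its values were seen. The brightness of the rows is unknown here, so ratios could not be set against signal.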

How the data were processed

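Per the labels, 3 two-colour arrays compared GATA-3 tumors (Cy5) with empty-vector tumors (Cy3). The authors deposited 1 log ratio per row and array, read here as log2; the sources used here do not give the scanner, background correction, normalization, log base, direction or brightness. The deposited log2 columns had medians of -0.02, -0.07 and -0.07. Rows were named through the platform annotation, and all 113 family rows matched the RefSeq symbol of their gene ID. Each array was centred on its median, 1 row with a missing value was left out, rows of a symbol were averaged, and limma 3.58.1 (R 4.3.3) set the mean against 0 (intercept-only fit, eBayes, Benjamini-Hochberg over all rows), for 31059 rows and, unaveraged, 38975. The fit was also run on simulated rows drawn independently of each other, which cannot show how it does on rows that share arrays.

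The members and lists were chosen with earlier results of these data known. Named genes follow a written rule: the 8 lowest and 8 highest members, those with 3 or more rows, stalk, tunnel and paralog genes, Rpl5, Rpl11 and Rps6, and up to 4 genes at each end of the other lists. Other members (Rpl7, Rpl10a, Rps7, Rps13, Rps19, Rps20, Rps26, Rpl28) were named after their values were seen. Eef1a1 of the list of TOP messages also lies outside the rule. Start windows are RefSeq's (GRCm38.p6).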

Additional observations from a re-analysis of the deposited data

How the results depend on the processing

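The number of arrays limits the precision. The counts of negative genes (45) and rows (66) stayed within 1.5 times under the deposited values, scaled arrays, a robust eBayes, an adjusted p under 0.10 and each array left out; for genes this also held with the median of the rows of a gene and without the 3 paralogs. Without arrays 1, 2 and 3, 47, 38 and 40 genes were negative past the threshold, where 27.6%, 13.8% and 10.6% of all rows were. Of the 45, 37 kept the call in all of these, and 8 lost it without array 2, of which 5 also lost it without array 3; of 12 positive genes 6 kept it. With a mean of at least 1 in size the count of rows moved to 36. The family median of -0.84 moved to -0.63 over rows, to -0.27 over genes with 2 or more rows and, chosen after seeing the data, to -1.12 over genes with 1 row. The large-minus-small difference of 0.03 has no stable sign. It was -0.17 to -0.11 when an array was left out, 0.22 over rows, -0.22 over genes with 2 or more rows and -0.0847 over genes with 1 row, also chosen after seeing the data. The cause was not tested. Without the rows of Rpl13a, likewise added later, 53 rows were negative. Each log ratio already sets the GATA-3 tumor against the empty-vector tumor of its array, so the fit against 0 uses that pairing. The arrays form a single group, so no further pairing was possible.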

Other observations

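Some properties from the RefSeq table were set beside the ratios, as descriptions over genes that share arrays. Members are short genes: their median span was 3230 bases, against 18522 for all named genes. Within the family, genes of longer span had higher ratios (Spearman's rho 0.50, n = 69); over all 15056 named genes rho was 0.00892. Rps15a and Rpl22, with the longest spans of the family (11774 and 9647 bases), were both positive, while Rpl5, with 8498 bases, was at -1.43. Against the number of pseudogenes named after a member, which 53 of 69 have, rho was -0.14.

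The 10 named genes outside the family, with 2 or more rows, whose values on the 3 arrays lay nearest to the family's medians were Rab7, Atp5c1, Eef2, Hr, Snrpg, Gusb, Abcf1, Oprl1, Arfgap1 and Hmx1, of 5120 candidates. Their distances ran from 0.0404 (Rab7) to 0.0962 (Hmx1) on the log2 scale. These are distances of row averages, and single rows can lie far away. The row means of Rab7 ran from -1.24 to 0.17 and those of Eef2 from -1.52 to 0.06, while those of Atp5c1 ran from -0.83 to -0.79.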
